A study of Mus musculus with 12 samples.

Results

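Transcripts of 7 genes that keep or remove DNA methylation were followed in mouse male germ cells: Dnmt1, Uhrf1, Uhrf2, Tet1, Tet2, Tet3 and Tdg. They are the rows of the deposited table whose Ensembl identifier carries 1 of these symbols, 7 of 55487 genes in all. Each of the 7 had a row, and each passed the filter for testing, as 22384 genes did. The cells are gonocytes, the germ cells of the fetal and newborn testis before spermatogonia form, isolated from Mvh-Venus transgenic mice, in which a fluorescent protein marks the germ line. RNA of 12 samples was sequenced, 3 per stage: embryonic days E13.5 and E16.5, birth (P0), and postnatal day 3, written P3. Titles and source names give wild type (WT) throughout. A genotype tag instead reads Morc1 (+/-) at E13.5 and P0 and Morc1 (-/-) at E16.5 and P3. Groups here follow stage alone, and in comparisons that cross the tag, stage and genotype cannot be told apart should the tag hold. Only E13.5 with P0, and E16.5 with P3, carry 1 tag. Whether the samples of a stage came from separate animals, and how many animals each held, is not given in the sources used here, so p-values measure the spread between these samples, which may be technical.

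DNA methylation at CpG sites is copied after each round of replication. UHRF1 binds the hemimethylated site through its SRA domain, ubiquitinates histone H3 and so recruits DNMT1, which methylates the new strand. UHRF2 is a paralogue of UHRF1 that does not replace it in maintenance. The TET enzymes oxidise 5-methylcytosine to 5-hydroxymethylcytosine and further to bases that TDG, thymine DNA glycosylase, cuts out for base excision repair. In the male mouse germ line, methylation is erased in primordial germ cells up to about the first of these stages and is laid down again in the arrested gonocytes of late fetal life. Proliferation stops in fetal gonocytes and resumes after birth.

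The 7 genes lie on 6 chromosomes in GRCm38, the build that the submitters' processing notes name, by the GENCODE M21 annotation. Dnmt1 (ENSMUSG00000004099) is at 20907209 to 20959888 on the minus strand of chromosome 9, with 39 exon blocks. Uhrf1 (ENSMUSG00000001228) is at 56303321 to 56323486 on the plus strand of chromosome 17 and Uhrf2 (ENSMUSG00000024817) at 30030513 to 30093722 on the plus strand of chromosome 19. Tet1 (ENSMUSG00000047146) is at 62804570 to 62908996 on the minus strand of chromosome 10. Tet2 (ENSMUSG00000040943) is at 133463679 to 133545139 on the minus strand of chromosome 3, and Tet3 (ENSMUSG00000034832) at 83362373 to 83459084 on the minus strand of chromosome 6. Tdg (ENSMUSG00000034674) is at 82629828 to 82650799 on the plus strand of chromosome 10. Counts are per gene, so transcript forms that start or splice differently are summed.

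Promoter windows, 250 bases before to 50 bases after a start site, were taken from RefSeq on GRCm38.p6, and all 7 genes had at least 1. Those of Dnmt1, Uhrf1 and Uhrf2 are shown because these genes fell from E13.5 to E16.5 and were higher at P3 than at E16.5. Those of Tet1 and Tet3 are shown because Tet1 fell and Tet3 rose from E13.5 to E16.5. Tdg also fell from E13.5 to E16.5 (log2 fold change -1.45) and was higher at P3 than at E16.5 (1.03), but its window is not printed. The windows were searched on both strands for 4 words of 7 letters, namely TTCCCGC, then TTGGCGC, then TTGCCGC, then TTCGCGC, which match the core of the binding word of E2F factors, which drive genes of the S phase. These words are in capitals, as read on the strand of the gene, and a capital stretch that starts with GCG is the reverse complement.
Dnmt1 (chr9:20952574-20952873, minus strand): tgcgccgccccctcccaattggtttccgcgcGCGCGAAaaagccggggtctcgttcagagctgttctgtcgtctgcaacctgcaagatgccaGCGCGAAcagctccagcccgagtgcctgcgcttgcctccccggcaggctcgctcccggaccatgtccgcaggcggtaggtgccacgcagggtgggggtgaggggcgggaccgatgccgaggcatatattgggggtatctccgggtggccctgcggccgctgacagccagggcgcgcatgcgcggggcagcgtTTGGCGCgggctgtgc
Uhrf1 (chr17:56303087-56303386, plus strand): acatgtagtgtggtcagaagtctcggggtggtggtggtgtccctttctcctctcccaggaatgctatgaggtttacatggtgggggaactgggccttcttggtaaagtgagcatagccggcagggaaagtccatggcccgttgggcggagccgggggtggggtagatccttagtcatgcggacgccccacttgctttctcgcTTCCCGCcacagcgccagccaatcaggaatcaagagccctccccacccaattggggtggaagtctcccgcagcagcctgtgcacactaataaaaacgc
Uhrf1, second start (chr17:56304063-56304362, plus strand): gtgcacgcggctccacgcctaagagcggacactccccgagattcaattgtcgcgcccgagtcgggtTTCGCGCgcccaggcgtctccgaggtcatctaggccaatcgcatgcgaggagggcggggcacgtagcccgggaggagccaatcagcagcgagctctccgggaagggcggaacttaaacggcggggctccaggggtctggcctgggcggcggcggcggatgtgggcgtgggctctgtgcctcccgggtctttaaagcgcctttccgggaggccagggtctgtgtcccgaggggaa
Uhrf2 (chr19:30030263-30030562, plus strand): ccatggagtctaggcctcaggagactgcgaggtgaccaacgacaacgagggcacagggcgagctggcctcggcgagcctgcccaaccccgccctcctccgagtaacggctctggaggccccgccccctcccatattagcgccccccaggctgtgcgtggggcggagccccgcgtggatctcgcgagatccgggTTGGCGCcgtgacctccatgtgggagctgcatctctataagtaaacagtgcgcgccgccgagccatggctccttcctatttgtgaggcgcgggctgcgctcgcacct
Tet1 (chr10:62887275-62887574, minus strand): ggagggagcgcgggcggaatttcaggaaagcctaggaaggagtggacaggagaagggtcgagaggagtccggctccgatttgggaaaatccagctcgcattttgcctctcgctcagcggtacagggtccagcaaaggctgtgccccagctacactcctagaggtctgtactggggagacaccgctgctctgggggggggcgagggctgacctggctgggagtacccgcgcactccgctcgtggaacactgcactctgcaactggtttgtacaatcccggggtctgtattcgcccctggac
Tet3 (chr6:83441629-83441928, minus strand): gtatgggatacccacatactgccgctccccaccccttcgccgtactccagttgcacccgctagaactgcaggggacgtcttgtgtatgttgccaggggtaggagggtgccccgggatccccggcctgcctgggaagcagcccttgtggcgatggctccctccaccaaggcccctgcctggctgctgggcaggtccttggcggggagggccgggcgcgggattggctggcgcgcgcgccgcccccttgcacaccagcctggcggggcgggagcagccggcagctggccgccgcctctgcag

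The Dnmt1 window above held 3 such words, and the Uhrf1 and Uhrf2 windows held 1 each. The other 2 Dnmt1 windows and the windows of Tet1, Tet2, Tet3 and Tdg held 0, so the words did not mark all genes with the fall and rise. The Dnmt1, Tet1 and Tet3 windows shown lie at start sites inside the GENCODE gene bounds. Of all 32851 RefSeq windows of this length, 9.57% held at least 1. That share is over windows of any CpG content, and each word searched contains a CpG. The windows also differed in CpG content. That of Tet2 had 57 CpG dinucleotides, at the 99.85 percentile of all windows, against 33 in the Dnmt1 window shown and in the second of Uhrf1. Uhrf2 had 28, Tdg 26, Tet3 22, Tet1 17 and the first window of Uhrf1 12, where the median of all windows was 7. A word match is a description of these letters and not a binding site, and no methylation was measured here.

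Each library held 40946616 to 51533747 reads in genes, as recovered from the table. Values below are normalized counts, the reads of a gene divided by the size factor of its library. Libraries carry the numbers 1, 3 and 4 of the table's column heads. Mean size factors were 0.939 (E13.5), 1.13 (E16.5), 1.94 (P0) and 1.01 (P3), and other ways of scaling moved P0 most. Morc1, the gene of the disputed tag, averaged 1697 ± 115 at E13.5, then 31378 ± 2641 (E16.5), 7496 ± 214 (P0) and 10880.5 ± 276.0 (P3; SD, n = 3). Both stages with the (-/-) tag held the 2 highest levels, but which part of the gene a mutant would lack is not given in the sources used here. The 7 germ cell markers Ddx4, Dazl, Mael, Tdrd1, Piwil2, Nanos2 and Nanos3 summed to 148656 to 253739 in every library. Markers of other testis cells summed to less but were uneven across stages. The 6 Sertoli markers ran from 2005 to 7904 and the 5 peritubular markers from 171.0 to 4160.4, both highest at P0. Mast cell markers were at 0 in all E13.5 libraries, 1520 to 3235 at P0 and 322.1 in P3 library 3. Leydig cell markers reached 8184 in E16.5 library 4, against 812.1 and 1512 in the other E16.5 libraries.

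Dnmt1, the maintenance methyltransferase, was high at E13.5 and P3 and low between. In libraries 1, 3 and 4 of E13.5 it had 12869.5, 11467 and 11913 normalized counts. At E16.5 they were 3605, 5001 and 4256, and at P0 they were 3020.04, 2734 and 2800.4. At P3 they were 11538, 11585 and 13734. The E16.5 and P0 libraries lay below every library of the other stages, whereas the E13.5 and P3 libraries overlapped. Dnmt1 fell 2.84-fold from E13.5 to E16.5 (log2 fold change -1.51, SE 0.102, adjusted p 6.18e-10 by limma's moderated test with Benjamini-Hochberg adjustment, as for every adjusted p below unless another tool is named). It rose 4.30-fold from P0 to P3 (log2 fold change 2.103, SE 0.102, adjusted p 1.27e-11). P3 did not differ from E13.5 past the threshold: the log2 fold change was 0.02 (SE 0.102, adjusted p 0.875) in the file's scaling, but scaling to equal library totals gave 0.35 (adjusted p 0.00762). In bulk samples such as these, fewer cells with a transcript and less of it per cell cannot be told apart.

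Uhrf1, whose protein brings DNMT1 to hemimethylated sites, had the same trough but a far higher level at P3. Its normalized counts were 7929, 7142 and 7972 in the E13.5 libraries, 1898, 2075 and 1915 at E16.5 and 1603, 1329 and 1196.5 at P0. They were 30251, 30377 and 34049.5 at P3. No library of 1 stage overlapped another stage. Uhrf1 fell 3.91-fold over the first interval (log2 fold change -1.97, SE 0.0941, adjusted p 6.37e-12). It rose 23.05-fold from P0 to P3 (log2 fold change 4.53, SE 0.0941, adjusted p 5.14e-15). P3 was also 4.11-fold above E13.5 (log2 fold change 2.04, adjusted p 7.92e-12). Of the 50-base words of Uhrf1 transcripts, 14.7% also occur in Gm5648, so some of its reads may match both. Gm5648 itself was at 167.6 ± 11.1 at P3, 0.531% of the Uhrf1 level there.

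Uhrf2 was highest at E13.5. Its normalized counts there were 5542, 5234 and 5049. They were 1034, 1337 and 1307.5 at E16.5, 1284, 1113 and 1055 at P0 and 1922, 1927 and 2117 at P3. E16.5 and P0 overlapped, and P3 lay between them and E13.5. Uhrf2 fell 4.32-fold from E13.5 to E16.5 (log2 fold change -2.11, SE 0.101, adjusted p 6.70e-12). At P3 it was 1.63-fold above E16.5 (log2 fold change 0.70, adjusted p 1.03e-05) and 2.65-fold below E13.5 (log2 fold change -1.41, adjusted p 2.19e-09). The rise from P0 to P3, a log2 fold change of 0.79 (adjusted p 2.24e-06), was not seen with equal library totals, where the value was -0.05 (adjusted p 0.680).

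**Figure D1:**
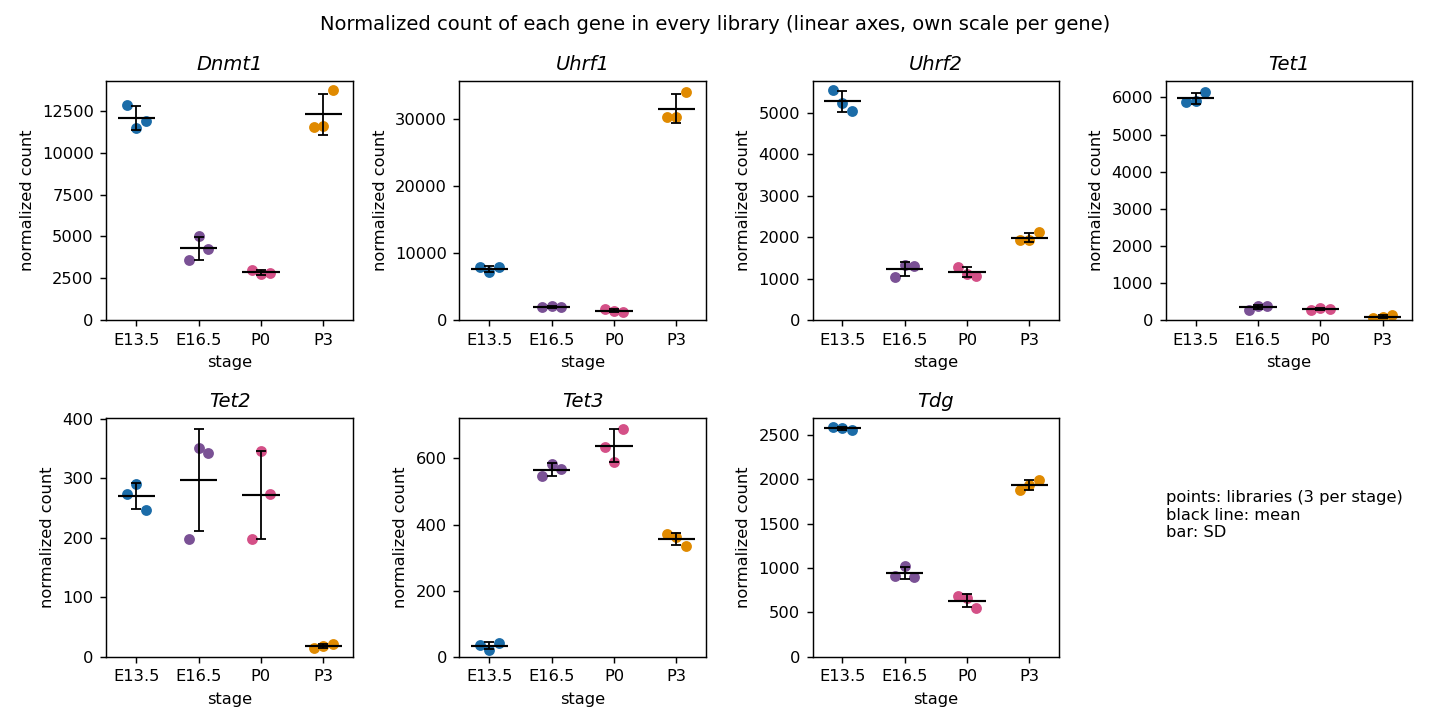
Normalized count (vertical axis, linear from 0, own scale for each gene) of the 7 genes in each of the 12 libraries by stage. Points are libraries, black lines are means and bars are SD (n = 3). Dnmt1, Uhrf1, Uhrf2 and Tdg are low at E16.5 and P0, Tet1 is high only at E13.5, Tet2 is low at P3 and Tet3 is low at E13.5.

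Ratios between genes of 1 library do not depend on its size factor, so the maintenance genes were also set against each other as levels per kilobase of exon, where lengths were 7.377 kb for Dnmt1, 4.259 kb for Uhrf1 and 8.59 kb for Uhrf2. Uhrf1 exceeded Uhrf2 per kilobase 2.75- to 3.18-fold in the E13.5 libraries, 2.95- to 3.70-fold at E16.5 and 2.29- to 2.52-fold at P0. At P3 the ratio was 31.8- to 32.4-fold. The P3 libraries thus stood apart from the other 9, and the earlier stages lay close together. On the log2 scale, the ratio of Uhrf1 to Dnmt1 was 0.09 to 0.21 (E13.5), -0.48 to -0.13 (E16.5), -0.43 to -0.12 (P0) and 2.102 to 2.18 at P3. Levels of Uhrf1 and Dnmt1 per kilobase were therefore near each other before P3, and Uhrf1 was the more abundant at P3 in each library. These ratios are descriptions and were not tested.

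**Figure D2:**
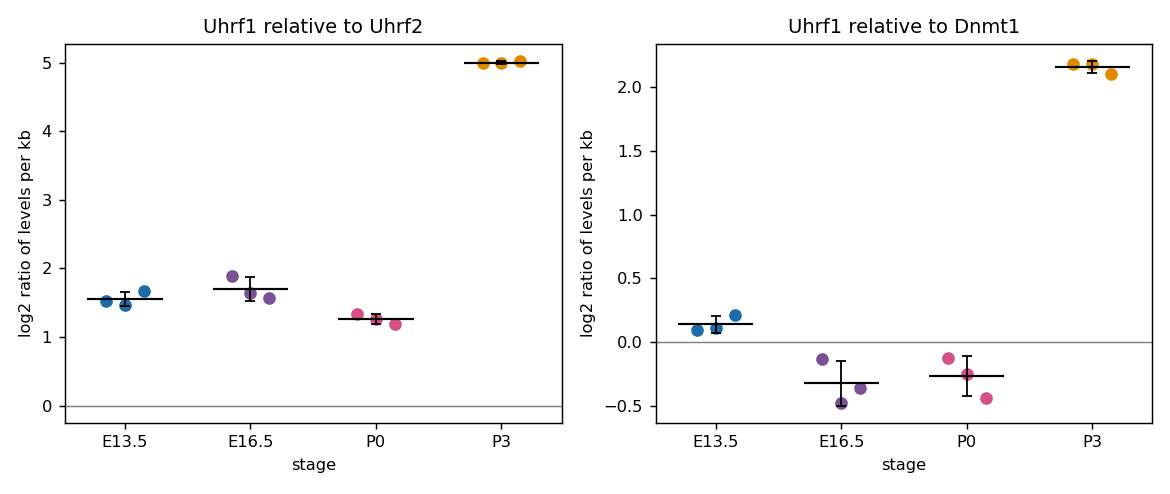
Log2 ratio of levels per kilobase (vertical axis) of Uhrf1 to Uhrf2 (left) and of Uhrf1 to Dnmt1 (right) in each library by stage. Points are libraries, black lines means and bars SD (n = 3). Both ratios lie between -0.48 and 1.89 in the 9 libraries before P3 and rise to 4.99 to 5.02 and 2.102 to 2.18 at P3.

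Tet1 was the gene of the 7 with the widest range, its highest stage mean being 63.1 times the lowest. TET1 is the TET enzyme known for its role in primordial germ cells, where it acts on imprints and germline gene promoters. Normalized counts were 5871, 5911 and 6137 at E13.5, 278.6, 372.9 and 386.2 at E16.5, 262.6, 327.7 and 309.9 at P0, and 65.9, 87.4 and 130.6 at P3. All E13.5 libraries were above every later one, E16.5 and P0 overlapped, and all P3 libraries were lowest. Tet1 fell 17.4-fold from E13.5 to E16.5 (log2 fold change -4.12, SE 0.191, adjusted p 4.38e-12). It fell a further 3.26-fold from P0 to P3 (log2 fold change -1.70, SE 0.191, adjusted p 4.68e-07). From E13.5 to P3 the log2 fold change was -6.02 (adjusted p 1.03e-13), the largest decrease among the 7 genes in any of the 6 comparisons.

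Tet3, the TET enzyme best known from the oocyte and zygote, moved the other way. Its normalized counts were 36.9, 21.8 and 41.0 at E13.5, from 35, 20 and 39 reads. Later values were 546.8, 583.9 and 568.3 (E16.5), 633.9, 590.1 and 689.7 (P0), then 371.1, 361.4 and 335.0 (P3). No 2 stages overlapped, with E13.5 lowest and P0 highest. Tet3 rose 17.1-fold from E13.5 to E16.5 (log2 fold change 4.10, SE 0.187, adjusted p 3.45e-12). It fell 1.79-fold from P0 to P3 (log2 fold change -0.84, SE 0.187, adjusted p 0.000659) and stayed 10.8-fold above E13.5 there (log2 fold change 3.43, adjusted p 6.29e-11). Relative to E13.5, marker sums of several other cells were also higher at E16.5. The 5 peritubular markers summed to 1253 to 1867 against 171.0 to 224.2. The 5 macrophage markers summed to 975.4 to 1156 against 38.1 to 86.2. Most of this was Cd68 (mean 938.0 at E16.5). Adgre1 and Csf1r rose to 47.5 and 57.3, whereas Lyz2 (7.72 to 5.59) and C1qa (2.11 to 2.59) changed little. The 6 red blood cell markers summed to 1791 to 2528 against 68.4 to 442.9, most of it Alas2 (mean 1476 at E16.5), with the others also higher in mean. The 6 Sertoli markers and the 6 Leydig markers overlapped between these stages. None of these 5 lists had a marker at 0 in all libraries of either stage. The sum of the 4 endothelial markers was lower at E16.5, at 477.1 to 676.9 against 4343 to 5085, but the markers were split. Pecam1 fell from a mean of 4618 to 281.8, while Cdh5 (9.92 to 29.8), Kdr (2.84 to 38.5) and Tie1 (0 to 214.7) rose. Mast cell markers summed to 27.9 to 46.7 at E16.5, against 0. Their part in the rise of Tet3 was not tested.

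Tet2 fell between P0 and P3. Normalized counts were 274.4, 290.5 and 247.1 at E13.5, 198.5, 351.5 and 342.7 at E16.5, and 197.9, 345.6 and 273.2 at P0. At P3 they were 14.5, 17.7 and 21.3, from 15, 18 and 21 reads. The earlier 3 stages overlapped fully, and library 1 was the lowest at both E16.5 and P0. P3 lay below every other library. Tet2 fell 14.3-fold from P0 to P3 (log2 fold change -3.84, SE 0.2499, adjusted p 4.83e-10). The earlier steps did not pass, with log2 fold changes of 0.09 from E13.5 to E16.5 and -0.12 from E16.5 to P0 (adjusted p 0.739 and 0.701). From E13.5 to P0 it was -0.03 (adjusted p 0.926) in the file's scaling but 1.14 (adjusted p 0.000834) with equal library totals. Marker sums of 6 other cell types were also lower at P3 than at P0, without overlap. Within these lists, Kdr (endothelial, 89.7 to 102.2) and Tagln (peritubular, 3.92 to 7.89) were higher in mean at P3. The other markers of the 6 lists were lower in mean. The 7 mast cell markers summed to 3.04 to 322.1 at P3, with Ms4a2 at 0, against 1520 to 3235 at P0. The peritubular sum was 796.6 to 915.7 against 3699 to 4160.4, and the red blood cell sum 294.6 to 545.6 against 1601 to 2563. Sertoli markers were at 2278 to 2984 against 3966 to 7904, Leydig markers at 499.1 to 527.4 against 1494 to 7281, and endothelial markers at 519.4 to 692.3 against 1209 to 1455. Macrophage marker sums overlapped, at 269.1 to 303.3 against 122.1 to 333.1, but the markers were split. Cd68 rose from a mean of 38.8 at P0 to 261.6 at P3. Adgre1 (72.7 to 0), Csf1r (39.4 to 5.55), Lyz2 (75.7 to 13.48) and C1qa (9.75 to 1.96) were lower in mean at P3. The part of these cells in the fall of Tet2 was not tested.

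The TET family was set on 1 scale, level per kilobase of exon (15.5 kb for Tet1, 16.9 kb for Tet2 and 16.7 kb for Tet3). Its make-up differed between stages, but little between E16.5 and P0. At E16.5 and P0, library shares overlapped for Tet2 (18.8% to 26.1% and 17.6% to 26.6%) and Tet3 (42.9% to 52.4% and 45.9% to 56.9%). Those of Tet1 did not (28.8% to 31.5% and 25.5% to 27.5%). Tet1 made up 95.5% ± 0.289 of the summed TET level at E13.5, then 30.2% ± 1.34 (E16.5), 26.3% ± 1.09 (P0) and 21.3% ± 6.50 (P3; SD, n = 3). The share of Tet3 was 0.491% ± 0.145, 46.3% ± 5.23, 52.0% ± 5.63 and 75.0% ± 7.03 in the same order. Tet2 held 3.97% ± 0.391, 23.5% ± 4.06, 21.7% ± 4.56 and 3.69% ± 0.541. Tet1 had the largest share in each E13.5 library and Tet3 in each of the other 9. The sum itself, in normalized counts per kilobase, was 404.5 ± 8.5 (E13.5), 73.9 ± 9.87 (E16.5), 73.8 ± 6.13 (P0) and 28.5 ± 1.22 (P3). The larger share of Tet3 at P3 than at P0 thus went with a lower, not a higher, level of Tet3.

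**Figure D3:**
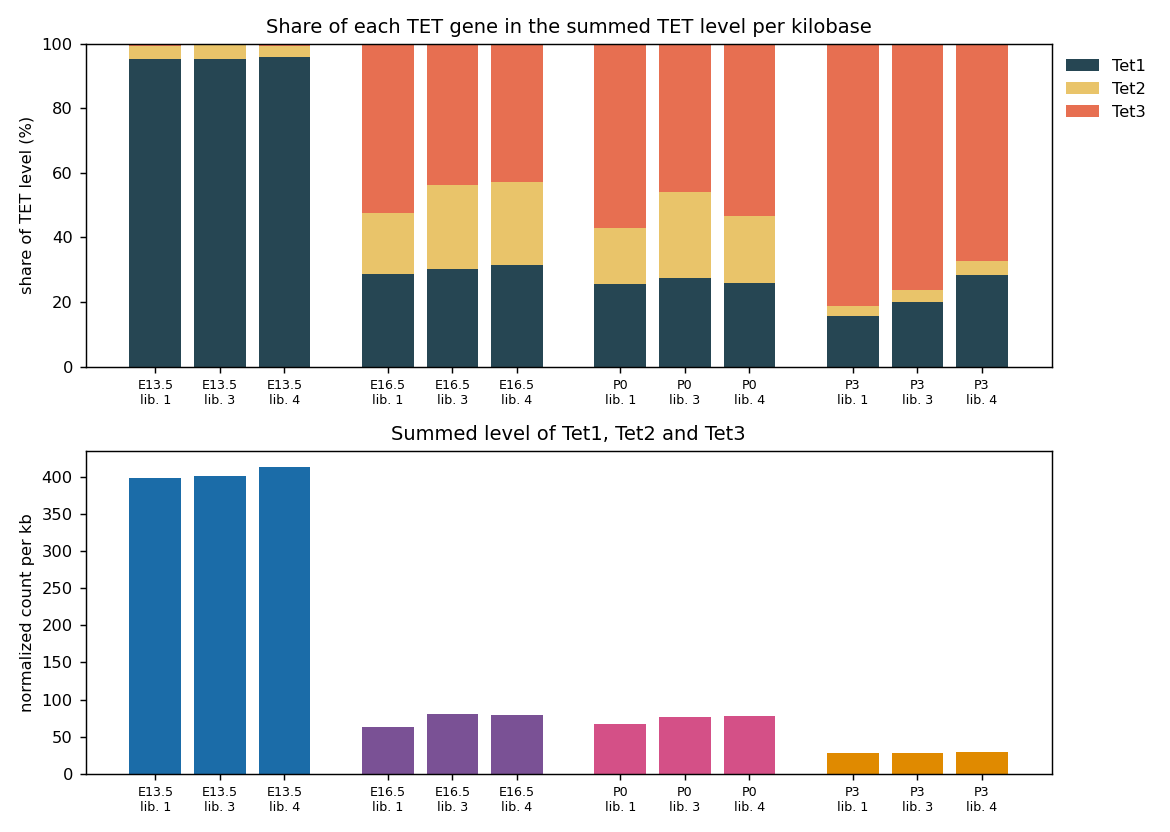
Upper panel, share in percent of Tet1, Tet2 and Tet3 in their summed level per kilobase in each library. Lower panel, that sum in normalized counts per kilobase. Tet1 is over 95% of the sum in the E13.5 libraries, Tet3 is the largest share in all later libraries, and the sum falls from 398.3 to 414.2 at E13.5 to 27.4 to 29.8 at P3.

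Tdg, the glycosylase that removes oxidised methylcytosine, was, like Dnmt1, low at E16.5 and P0. Its normalized counts were 2588, 2575 and 2555 at E13.5, 913.2, 1023 and 899.9 at E16.5, 681.4, 664.0 and 554.1 at P0, and 1878, 1935 and 1989.99 at P3. No 2 stages overlapped, in the order E13.5, P3, E16.5 and P0 from high to low. Tdg fell 2.72-fold from E13.5 to E16.5 (log2 fold change -1.45, SE 0.0895, adjusted p 1.80e-10) and rose 3.06-fold from P0 to P3 (log2 fold change 1.61, adjusted p 6.43e-11). P3 was 1.33-fold below E13.5 (log2 fold change -0.41, adjusted p 0.000599), a difference that was -0.08 (adjusted p 0.391) with equal library totals. Some reads of Tdg may belong elsewhere, since 41.2% of 50-base words in its transcripts occur also in transcripts of 5 other genes, among them Tdg-ps. The mean of Tdg-ps was at most 1.05% of that of Tdg at any stage. Exons of Tdg also overlap 367 bases of Glt8d2 on the other strand, and the strand setting of the counting is not given in the sources used here. Glt8d2 was at 319.9 ± 17.6 at P0, against 37.7 ± 7.02 at E13.5.

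Per kilobase, Uhrf1 at P3 was the most abundant of the 7 at any stage, with 7410.0 normalized counts per kilobase, above 98.8% of the 22364 tested genes with a length. Tet2 at P3 was the least, with 1.06, above 8.08%. Dnmt1 lay above 82.9% to 91.9% of genes at every stage. Tet1 moved from above 74.9% at E13.5 to above 22.5% at P3, and Tet3 from above 22.1% to above 37.9%, with 41.9% at E16.5 between.

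Set against the transcriptome, a test result for any 1 gene is common in these data. All 7 genes differed among the 4 stages by limma's F-test (adjusted p at most 1.29e-10), as 95.2% of all tested genes did. From E13.5 to E16.5, 6 of 7 genes passed, 5 lower (Dnmt1, Uhrf1, Uhrf2, Tet1 and Tdg) and 1 higher (Tet3), where 80.1% of all genes did, 34.6% lower and 45.5% higher. Their median log2 fold change was -1.51, against 0.31 over all tested genes. From E13.5 to P0, within 1 genotype tag, the same 6 passed in the same directions (86.1% of all genes passed, 45.7% higher and 40.5% lower), with log2 fold changes of -2.08 for Dnmt1, -2.49 for Uhrf1, -2.20 for Uhrf2, -4.32 for Tet1, 4.27 for Tet3 and -2.03 for Tdg. These 2 comparisons share the E13.5 libraries. The sum of the 4 endothelial markers moved with the 5 genes that fell from E13.5 to E16.5. At E13.5 it came from Pecam1 (4618 ± 400), with Tie1 at 0 and Cdh5 and Kdr at 9.92 and 2.84. At E16.5 Pecam1 was at 281.8 ± 74.3, while Tie1 (214.7 ± 28.6), Cdh5 (29.8) and Kdr (38.5) were higher than at E13.5. The part of this marker sum in the falls was not tested.

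Between E16.5 and P0, which genes passed depended on scaling. The median log2 fold change of all tested genes there was -0.01 in the file's scaling, 0.11 with TMM factors, 0.26 with median-of-ratios factors and 0.68 with equal library totals, so the scalings shift every gene by such amounts. Dnmt1, Uhrf1 and Tdg passed as lower at P0, 3 of 7, where 61.0% of all genes passed and 33.4% were lower. Their log2 fold changes were -0.58, -0.52 and -0.58 (adjusted p 0.000127, 0.000148 and 3.02e-05). With median-of-ratios factors they were -0.32, -0.26 and -0.32 and still passed. With equal library totals they were 0.09, 0.14 and 0.08 and none passed, whereas Uhrf2 (0.58, adjusted p 0.000155) and Tet3 (0.83, adjusted p 0.00092) passed as higher. Under the file's scaling Uhrf2, Tet1, Tet2 and Tet3 did not pass, with log2 fold changes of -0.09, -0.20, -0.12 and 0.17. For none of the genes but Tet3 did all 4 scalings give 1 direction at this interval.

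Between P0 and P3 all 7 genes passed, where 76.5% of all genes did. Dnmt1, Uhrf1, Uhrf2 and Tdg rose and the 3 TET genes fell, with 40.1% of all genes higher and 36.4% lower. Equal library totals left 6 of these calls, without Uhrf2. The 7 germ cell markers also summed to more at P3, 240222 to 253739 against 148656 to 160195 at P0. Most of that rise was in Dazl (59234 to 128882) and Ddx4 (23180 to 49336). Tdrd1, Nanos2 and Nanos3 were also higher in mean, whereas Mael (44978 to 39886) and Piwil2 (20073.5 to 19597) were lower. The marker sums of 6 other cell types given with Tet2 were lower. The part of germ cells and of these other cells in the 7 changes was not tested. From E16.5 to P3, again within 1 tag, the same 4 rose and the same 3 fell (69.5% of all genes passed, 34.2% higher and 35.2% lower), and each call held under all 4 scalings. Log2 fold changes there were 1.53 for Dnmt1, 4.01 for Uhrf1, 0.70 for Uhrf2, 1.03 for Tdg, -1.90 for Tet1, -3.96 for Tet2 and -0.67 for Tet3. Comparing P3 with E13.5, 6 of 7 passed (70.4% of all genes, 39.2% higher and 31.2% lower), with Uhrf1 and Tet3 higher and Uhrf2, Tet1, Tet2 and Tdg lower. These comparisons share libraries of a stage, so they do not support each other.

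**Figure D4:**
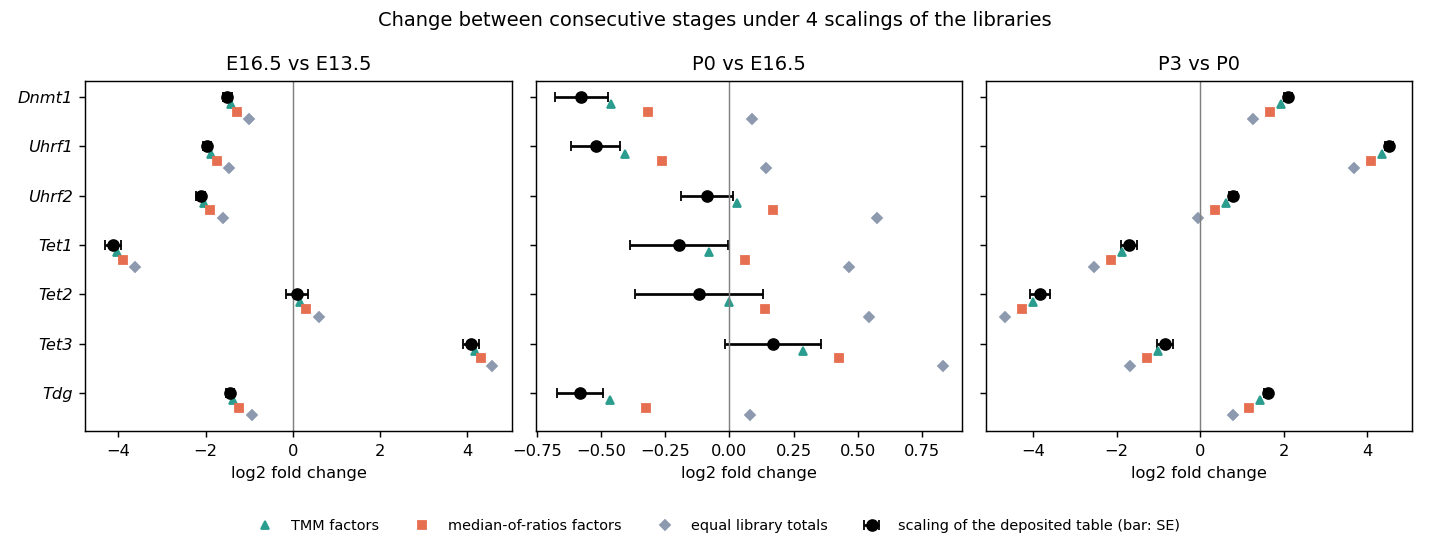
Log2 fold change (horizontal axis, first stage named against the second) of each gene between consecutive stages. Black points are under the scaling of the deposited table with bars of SE, and triangles, squares and diamonds are under TMM factors, median-of-ratios factors and equal library totals. The 6 called changes from E13.5 to E16.5 keep their side of 0 under every scaling, whereas from E16.5 to P0 all genes but Tet3 cross it.

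Partners of DNMT1 and UHRF1 mostly changed in the same directions. Of 9 listed genes, 8 were tested, since Pclaf was listed at 0 in every library. From E13.5 to E16.5 all 8 fell, as 34.6% of all genes did (median log2 fold change -2.11, against 0.31 over all genes). From P0 to P3, 7 rose, as 40.1% of all genes did (median 2.07, against 0.05). Hells, a chromatin remodeller needed for normal methylation, fell from 44581 ± 3380 to 5283 ± 379 normalized counts and rose from 5655 ± 464 at P0 to 36292 ± 985 at P3. Pcna, the replication clamp, fell from 23859 ± 145 to 3988 ± 37 and rose from 3727 ± 290 to 22436 ± 1773. Cdca7, the partner of HELLS, was highest at P3, at 26932 ± 425, against 12792 ± 470 at E13.5, as Uhrf1 was. Dppa3, whose protein keeps UHRF1 off chromatin, was the 1 gene that did not rise. Its means from the first stage to the last were 79747 ± 2546, 14676 ± 719, 181.8 ± 26.9 and 17.8 ± 5.22. The 8 falls at E16.5 were 7 with equal library totals, where Lig1 changed direction.

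Genes of replication and proliferation showed the same trough. All 14 fell from E13.5 to E16.5 (median log2 fold change -1.81, with 34.6% of all genes lower) and 13 of 14 rose from P0 to P3 (median 2.42, with 40.1% of all genes higher), Pole being the exception (log2 fold change 0.04). With equal library totals, 13 of 14 fell at E16.5, and 12 rose and 1 fell at P3. Mki67, a marker of cycling cells, fell from 1681 ± 159 to 161.9 ± 49.4 and rose from 203.4 ± 21.5 at P0 to 2086 ± 255 at P3. Mcm2, a subunit of the replicative helicase, had means of 46008, 7403, 3867.5 and 39836 in stage order. Comparing P3 with E13.5, 3 of 14 were higher and 7 lower (6 and 3 with equal library totals), with a median of -0.23 and 0.23 for E2f1, where Uhrf1 was at 2.04.

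The de novo methyltransferases, which set new methylation marks, rose from E13.5 to E16.5, where the maintenance genes fell. From E13.5 to E16.5 all 4 rose, where 45.5% of all genes were higher, with Dnmt3a going from 5254 ± 150 to 52805 ± 4712, and these directions held under each scaling. From E16.5 to P0 Dnmt3a (to 19793 ± 351), Dnmt3c and Dnmt3l fell under each scaling, where 33.4% of all genes were lower in the file's scaling. Dnmt3b did not pass there. From P0 to P3 Dnmt3a, Dnmt3c and Dnmt3l fell and Dnmt3b rose (log2 fold change 2.28), with 36.4% of all genes lower and 40.1% higher. Dnmt3l, the cofactor without catalytic activity, had 17.8, 20342, 6619 and 526.5 normalized counts from the first stage to the last.

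Genes that supply or modulate TET enzymes were mixed. Of 9, 8 were tested, since Gadd45b was listed at 0. From E13.5 to E16.5, 5 fell (Ogt, Idh1, Idh2, Idh3a and Cxxc5) and 2 rose (Cxxc4 and Gadd45a), with a median log2 fold change of -0.92 against 0.31 over all genes, of which 80.1% were called. Idh1 changed direction with equal library totals. Ogt, which binds TET proteins and adds N-acetylglucosamine, fell from 12181 ± 344 to 3979 ± 584 normalized counts. Idh2, an enzyme that makes the 2-oxoglutarate used by TET enzymes, fell from 6413 ± 317 to 1129 ± 276. From P0 to P3, 5 rose and 2 fell under the file's scaling, where 40.1% of all genes were higher and 36.4% lower. With equal library totals 1 rose and 4 fell, against 4577 higher and 13565 lower of 23221 genes.

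Base excision repair genes that act with or beside TDG were called in both directions. From E13.5 to E16.5, 5 of 11 fell and 3 rose, with a median log2 fold change of -0.28 against 0.31 over all genes. The share called, 8 of 11, was near the 80.1% of all genes, of which 34.6% were lower and 45.5% higher. With equal library totals 6 rose and 4 fell, against 12911 higher and 5506 lower of 23221 genes. Those that fell included Smug1 (log2 fold change -2.02) and Mbd4 (-2.10), glycosylases that also act on deaminated methylcytosine or its products. Neil2, a glycosylase that can help TDG, rose from 36.7 ± 20.2 to 348.4 ± 17.8 (log2 fold change 3.34). From E16.5 to P0, 7 fell and the other 4 did not pass, where 61.0% of all genes passed and 33.4% were lower. With equal library totals 5 fell and 4 rose, against 3443 lower and 12743 higher of 23221 genes. From P0 to P3, 8 rose and the other 3 did not pass (median 1.37, against 0.05 over all genes). Of all genes, 40.1% were higher and 36.4% lower. With equal library totals 6 rose and 3 fell, against 4577 higher and 13565 lower of 23221. Parp1 was among those that rose, from 15128 ± 1304 to 39007 ± 3343.

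**Figure D5:**
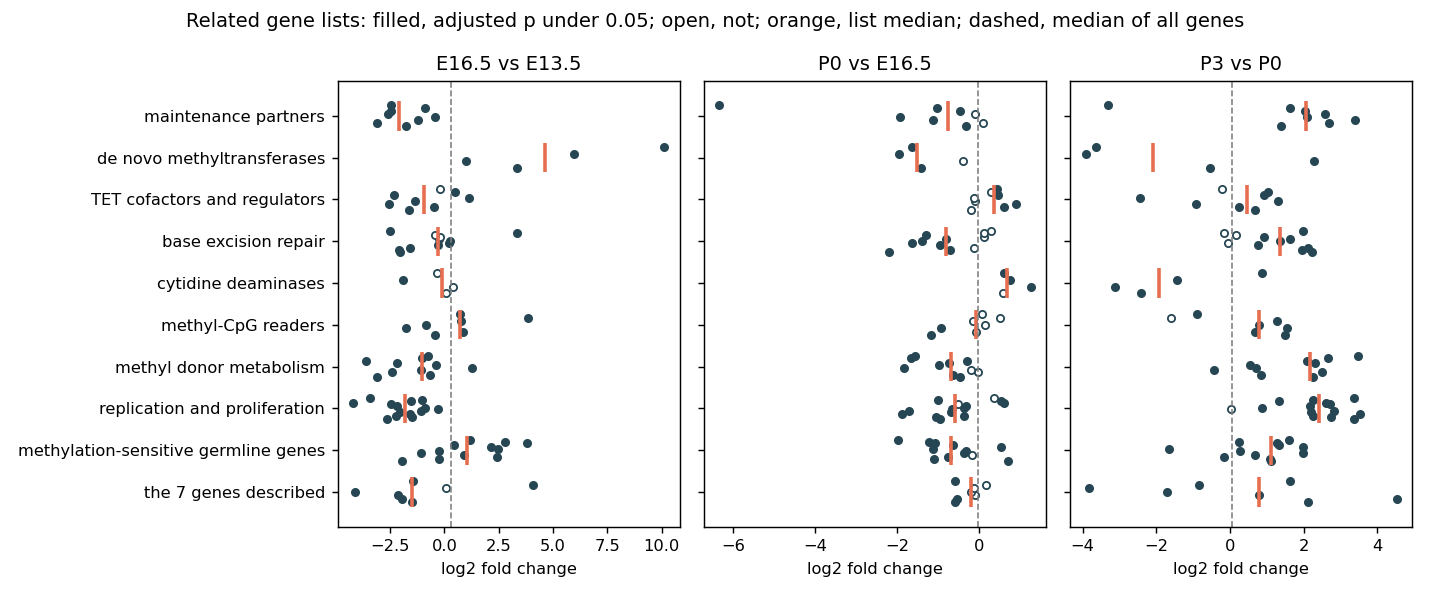
Log2 fold change (horizontal axis) of each tested gene of the related lists and of the 7 genes between consecutive stages, the first stage named against the second. Filled points passed limma's adjusted p under 0.05 and open points did not, orange lines are list medians and the dashed line is the median of all tested genes. Maintenance partners and replication genes lie below 0 at E16.5 and, apart from Dppa3, above 0 at P3 in the file's scaling, where Lig1 and Pole change sides at E16.5 with equal library totals.

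Across the 12 libraries the 7 genes fell into different patterns. Pearson correlations of log2(normalized count + 1), which mostly reflect the 4 stages and are given as descriptions, were 0.975 for Dnmt1 with Tdg, 0.908 for Dnmt1 with Uhrf1 and 0.890 for Uhrf2 with Tdg. They were -0.971 for Uhrf2 with Tet3 and -0.859 for Tet1 with Tet3. Among 13467 genes searched, Dnmt1 was most like Akap8 (0.996), Rock2 and Klhl21, and Tdg most like Tpx2 (0.999), a spindle assembly factor. Uhrf1 was most like G3bp2 (0.997), Nelfb and Eva1b, and Uhrf2 most like Hnrnpr (0.997), Prr14 and Mia2. Tet1 was most like Tcf4 (0.994), Tdrp and Tmem17, Tet2 most like Klf12 (0.989), Zfp592 and Spata7, and Tet3 most like Ccdc88b (0.996), Epha8 and Col17a1. Ccdc88b and Col17a1 were at 2.82 and 1.77 at E13.5 and 565.7 and 429.4 at P0.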

How the data were processed

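The authors deposited 1 table of 55487 mouse genes by 12 libraries, whose signal values are reads per gene over a library's size factor. Its title names featureCounts and RLE scaling. The submitters' processing notes list bcl2fastq 2.20, cutadapt 1.18, HISAT2 2.1.0, featureCounts 1.5.2, DESeq2 1.26.0 and GRCm38 (mm10), without roles. Annotation release, strand and the handling of reads that match several genes are not given in the sources used here. Per the labels' protocols, libraries were made with SMART-seq v4 and TruSeq kits from little RNA, so amplified reads are not independent molecules and counting error is a lower limit.

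Within a tolerance of 0.001, 100% of values equalled a whole number of reads in each library, so reads and size factors were recovered. Depth was 40946616 to 51533747 reads per library, and 3 reads were taken as the floor. Columns went to stages only: their numbers are 1, 3 and 4, while titles number replicates otherwise. Symbols matched 99.4% of identifiers. Lengths, positions and shared 50-base words came from GENCODE M21.

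Genes reaching 10 normalized counts in 3 or more libraries were tested by limma 3.58.1 (R 4.3.3, trend, 1 fit of all 12 libraries) on log2(normalized count + 1), with Benjamini-Hochberg adjustment over all tested genes and a threshold of 0.05. Alternatives were TMM, median-of-ratios and equal-total scaling, pseudocounts of 0.1 and 10, the unfiltered table, a mean minimum of 100, the 2 compared stages alone, each library left out, a block on the column number (added after seeing the data), and edgeR 4.0.16 and DESeq2 1.42.0 on recovered reads. On simulated data with 200 of 20976 genes changed 4-fold at P0, limma recovered 100% in comparisons with P0 and called at most 14 unchanged genes. The fits were given the size factors that made the simulated reads, and far fewer genes changed than passed in the real data. The scaling of P0 and changes smaller than 4-fold were therefore not tested by it. Named genes are the 7, those of 9 related lists, Morc1, and the 3 genes most correlated with each (highest stage mean at least 100, no predicted or clone names). Some genes of these lists are not reported here. Python 3.11.15, numpy 2.4.6, pandas 2.3.3 and matplotlib 3.10.9 were used elsewhere. The genes and lists were chosen with earlier results of these data known.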

Additional observations from a re-analysis of the deposited data

How the results depend on the processing

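The planned replicate block on the labels' numbers was not fitted, since column numbers (1, 3 and 4) differ from those in the titles. A replicate block on the column number, chosen after seeing the data, gave 7 genes called among stages and 6, 3, 7, 6, 7 and 6 in the 6 comparisons, and changed no call of the 7 genes. Deviations from stage means of same-numbered libraries correlated between -0.0356 and 0.0423 across genes in 18 pairs, and none exceeded 0.1. The number of the 7 genes called in each comparison was the same under TMM and median-of-ratios factors, both pseudocounts, both other filters, the 2 stages alone, edgeR, DESeq2 and each left-out library. Equal library totals gave 2, not 3, from E16.5 to P0, then 6, not 7, from P0 to P3, and 7, not 6, between E13.5 and P0. The call of Dnmt1 between E13.5 and P3 was gained (0.35) and that of Tdg lost (-0.0832) with equal totals, and that of Tet3 from E16.5 to P0 was gained (0.83). Tet2 between E13.5 and P0 and Uhrf2 from E16.5 to P0 passed with equal totals after a change of sign.

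Log2 fold changes that changed sign were these. At P0 against E16.5, equal library totals gave 0.0865 for Dnmt1, 0.14 for Uhrf1, 0.58 for Uhrf2, 0.47 for Tet1, 0.54 for Tet2 and 0.0815 for Tdg. Median-of-ratios factors gave 0.17 for Uhrf2, 0.061 for Tet1 and 0.14 for Tet2, and TMM factors gave 0.029 for Uhrf2. At P3 against P0, Uhrf2 was -0.0482 with equal totals. At P0 against E13.5, Tet2 was 0.18 with TMM factors, 0.45 with median-of-ratios factors, 1.14 with equal totals and 0.00785 with edgeR and 0.00794 with DESeq2. Leaving out 1 library at a time moved Dnmt1 at P3 against E13.5 between -0.062 and 0.0672, and Tet2 between -0.0501 and 0.36 from E13.5 to E16.5, -0.39 and 0.0926 at P0 against E16.5, and -0.22 and 0.19 at P0 against E13.5. The Dnmt1 value changed sign without E13.5 library 3 (-0.0161) or P3 library 4. The Tet2 values changed sign without E16.5 library 3, E16.5 library 4, P0 library 1 or E13.5 library 3. None of the 4 values with such a leave-one-out change was called. The scaling shifts every gene by construction, with P0 moved most. Depth limits Tet2 at P3 (15 to 21 reads) and Tet3 at E13.5 (20 to 39 reads) most.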

Other observations

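Genes that make the methyl donor S-adenosylmethionine had the trough of the maintenance genes. Of 10 listed, 9 fell and 1 (Mtr) rose from E13.5 to E16.5 (median log2 fold change -1.05, against 0.31 over all genes). Of all genes, 34.6% were lower and 45.5% higher. From P0 to P3, 9 rose and 1 fell (median 2.17, against 0.05), with 40.1% of all genes higher and 36.4% lower. With equal library totals 8 fell and 1 rose in the first interval, against 5506 lower and 12911 higher of 23221 genes. In the second, 6 rose and 2 fell, against 4577 higher and 13565 lower. Mat2a, which makes S-adenosylmethionine, had stage means of 26449.9 ± 516.6, 3142 ± 562, 2263 ± 349 and 10747.5 ± 375.8 normalized counts in order of age. Shmt2, a mitochondrial enzyme of the folate cycle, was highest at P3, at 21279.5 ± 506.7 against 9613 ± 324 at E13.5.

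Among readers of methylated CpG, Mbd2, Zbtb33, Zbtb4 and Zbtb38 rose from E13.5 to E16.5. Mbd1 and Mbd3 fell, and Mbd1 changed direction with equal library totals. Of 12 germline genes known for methylation-sensitive promoters, 8 rose and 4 fell from E13.5 to E16.5, where 45.5% of all genes were higher and 34.6% lower, with a median log2 fold change of 1.05 against 0.31 over all genes. With equal library totals 10 rose and 2 fell, against 12911 higher and 5506 lower of 23221 genes. Tex101, a germ cell surface protein, rose from 1127 ± 52 to 15738.5 ± 1560, and Dazl fell by 1.95 on the log2 scale. From P0 to P3, 10 of the germline genes rose and 2 fell, with 40.1% of all genes higher and 36.4% lower. With equal library totals 7 rose and 4 fell, against 4577 higher and 13565 lower of 23221.

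Among libraries of a stage, Tet1 was lowest in library 1 at all 4 stages, with 5871, 278.6, 262.6 and 65.9 normalized counts. Tet2 was lowest in library 1 at E16.5, P0 and P3 but not at E13.5. The sources used here do not say whether the column numbers mark anything shared between stages.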
